A study of Homo sapiens with 5 samples.

Results

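The genes described here are the 10 human genes that encode the D-type cyclins (CCND1, CCND2 and CCND3), their kinases (CDK4 and CDK6), the CIP/KIP inhibitors (CDKN1A, CDKN1B and CDKN1C) and the INK4 inhibitors CDKN2A and CDKN2B. The list was drawn up by gene name and family, with earlier results of these data known, and it leaves out the INK4 genes CDKN2C and CDKN2D. Each of the 10 names matched 1 of the 64837 entries of the count files. They were measured by RNA-Seq in NCI-H209, an established cell line of human small-cell lung cancer (SCLC), to ask how brain endothelium alters gene expression of tumor cells. The 3 control libraries came from untreated NCI-H209 grown in RPMI-1640 medium with fetal bovine serum. The 2 co-cultured libraries came from NCI-H209 of the same medium that had shared it for 24 h with human brain microvascular endothelial cells (HBMECs) across the porous membrane of a Transwell chamber. Only RNA of the tumor cells was collected. All libraries came from 1 cell line, and the labels do not say whether replicates were separate cultures, so p-values measure the spread between these libraries, which may be technical.

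D-type cyclins bind CDK4 or CDK6 during the G1 phase of the cell cycle, and the active kinases phosphorylate the retinoblastoma protein RB1, which otherwise holds E2F transcription factors in check. INK4 proteins bind CDK4 and CDK6 and keep them from the cyclins, whereas CIP/KIP proteins bind cyclin-kinase complexes and inhibit mainly those of CDK2. SCLC is a neuroendocrine tumor in which loss of RB1 function is common, and high p16INK4a, a product of CDKN2A, often accompanies loss of RB1.

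After co-culture, RNA of 4 members rose and of none fell, with the call set at an adjusted p under 0.05 in edgeR's quasi-likelihood test, against 18.4% of all genes tested that rose and 15.0% that fell. CDKN1A, the CIP/KIP inhibitor p21, rose 3.28-fold. Cyclin D3 (CCND3) rose 2.22-fold, CDK6 rose 2.16-fold from a low level, and the INK4 inhibitor CDKN2B (p15) rose 1.35-fold. CDK4 and CDKN1B, the members with the most RNA per length of exon, did not pass the test, nor did CCND1 and CDKN2A. CCND2 and CDKN1C had too few counts to be tested. That no member fell depends on the list, since CDKN2C, an INK4 gene outside it, had a log2 fold change of -0.89 (edgeR adjusted p = 0.000296).

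The sequences just before the transcription starts of the 4 genes that rose, and of CDK4, are printed because they are the promoter DNA of the genes the comparison turns on. They were taken from the RefSeq annotation of GRCh38.p14, written 5′ to 3′ on the strand of the gene, each with the 250 bases before a start. Of the 10 members 7 were matched, with 11 starts between them, and the starts shown for CCND3 and CDK6 are those farthest upstream. CCND1, CCND2 and CDKN1C were not matched. Capitals mark the GC box GGGCGG, the letters that SP1-family factors bind, on either strand, in the first 4 sequences. In the sequence of CDK4 they mark instead the E-box CACGTG, the letters that MYC-family factors bind.
CDKN1A, chr6:36678464-36678713, plus strand: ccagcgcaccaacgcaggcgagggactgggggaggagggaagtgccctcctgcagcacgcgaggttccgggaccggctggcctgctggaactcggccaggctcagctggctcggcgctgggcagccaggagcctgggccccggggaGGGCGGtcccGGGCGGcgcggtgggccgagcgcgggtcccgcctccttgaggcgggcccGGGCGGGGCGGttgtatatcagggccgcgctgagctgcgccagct
CCND3, chr6:42048689-42048938, minus strand: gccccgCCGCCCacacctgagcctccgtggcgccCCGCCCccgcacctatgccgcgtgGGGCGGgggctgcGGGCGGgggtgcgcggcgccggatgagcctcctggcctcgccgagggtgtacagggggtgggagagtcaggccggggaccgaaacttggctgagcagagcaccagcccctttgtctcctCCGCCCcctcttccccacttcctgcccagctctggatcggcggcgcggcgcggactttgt
CDK6, chr7:92836574-92836823, minus strand: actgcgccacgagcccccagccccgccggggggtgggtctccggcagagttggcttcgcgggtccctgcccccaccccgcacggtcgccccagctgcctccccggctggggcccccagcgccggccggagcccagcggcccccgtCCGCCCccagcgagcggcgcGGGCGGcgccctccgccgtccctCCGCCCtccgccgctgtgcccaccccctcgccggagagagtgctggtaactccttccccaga
CDKN2B, chr9:22009306-22009555, minus strand: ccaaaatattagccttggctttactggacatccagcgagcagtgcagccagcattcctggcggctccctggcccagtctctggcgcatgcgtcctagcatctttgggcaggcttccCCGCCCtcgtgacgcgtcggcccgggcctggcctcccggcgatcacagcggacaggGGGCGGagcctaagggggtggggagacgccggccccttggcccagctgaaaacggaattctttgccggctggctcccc
CDK4, chr12:57752311-57752560, minus strand: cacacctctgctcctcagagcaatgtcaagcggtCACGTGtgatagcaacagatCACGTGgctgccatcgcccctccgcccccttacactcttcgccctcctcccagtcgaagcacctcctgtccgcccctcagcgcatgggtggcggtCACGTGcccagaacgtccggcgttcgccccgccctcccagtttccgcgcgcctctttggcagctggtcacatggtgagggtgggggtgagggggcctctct

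These windows held 4 GC boxes for CDKN1A, 5 for CCND3, 3 for CDK6, 2 for CDKN2B and 3 for CDK4, overlapping matches counted. Of the remaining 6 member windows, those of CDKN1B and of the downstream start of CDKN2A held 1 each, the middle window of CCND3 held 2, and those of the downstream start of CCND3, the downstream start of CDK6 and the upstream start of CDKN2A held none. At least 1 GC box was thus found in 8 of 11 member windows and in 42.6% of 35116 RefSeq promoter windows of the same length. The window of CDK4 was the only member window with an E-box, of which it held 3, against 6.34% of all windows with any. The letters ACGTG, the core of the hypoxia response element, lie within CACGTG, and all 6 matches of them before CDK4, counted on both strands, were those of its E-boxes. ACGTG was otherwise found in 1 further member window, that of a downstream start of CDK6, with 2 matches, and in 18.5% of all windows. TTTAT, a core bound by posterior HOX proteins, had 1 match among the 11 member windows, at the same downstream start of CDK6, against 32.7% of all windows with a match. A match is a stretch of letters and does not show that a factor binds there.

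The libraries held 15457071 to 19157348 counts on genes, and 92.3% to 93.1% of the gene counts of both strands lay on the strand of the library. The share of unmapped reads was 8.13% to 8.48% in control but 16.8% and 15.9% in co-cultured replicates 1 and 2, and reads assigned to no gene were 47.3% to 51.2% in control but 40.1% and 40.8% in the same co-cultured replicates. Control replicate 1 stood farthest from the other controls, with chi-square values over genes of 17.4 and 17.7 per degree of freedom, against 6.26 between control replicates 2 and 3 and 4.41 between the co-cultured replicates. Of 12 neuroendocrine markers 11 passed the filter on low counts. Of these 4 rose (36.4%) and 2 fell (18.2%) after co-culture, against 18.4% and 15.0% of all genes tested. INSM1 stood at a mean level of 579 CPM (counts per 1000000 counts of the scaled library) in control, while CHGA, the marker not tested, had at most 1 count in a library. Of 20 endothelial markers, 11 did not pass the filter on low counts, 3 (MMRN1, PLVAP and ECSCR) had no count in any library, CDH5 and PECAM1 had at most 11 and 18 counts, and the summed level of the 20 was 10.4 to 21.6 CPM in control and 13.8 to 14.1 CPM in co-cultured libraries. Among the 9 tested, only ESAM was called higher (11.1%, against 18.4% of all genes tested). ESAM had 3, 4 and 6 counts in control and 21 and 14 after co-culture. It reached the filter through the group where it is high. In control replicates 1 and 2, FLT1 had 30 and 28 counts, KDR 37 and 27, and TEK 31 and 24, against 0 to 12 counts of each in the other 3 libraries. Opposite-strand reads in control replicates 1 and 2 were as marked, at 44 and 17 for FLT1, 24 and 20 for KDR, and 25 and 23 for TEK. The other 3 libraries had 0 to 6 of them for each gene. CCND1 had most counts in the same 2 control replicates, with 84 and 53 opposite-strand reads, and nearly all opposite-strand reads of CDK6 lay there. Whether any of these differences between libraries bears on the values of the members was not tested.

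Over all 20360 genes tested, 33.4% passed the test in either direction, and 4 of the 8 members tested rose and none fell by edgeR. None was lower at an unadjusted p under 0.05 either, nor by DESeq2. The median log2 fold change of the tested members was 0.40, beside -0.03 over all genes tested. By the study's thresholds, an absolute fold change above 1, read here on the log2 scale, and a p under 0.05, taken here as unadjusted, 3 members (CCND3, CDK6 and CDKN1A) were upregulated, against 5.44% of all genes higher and 5.01% lower on this reading. In 6 of the 8 tested members every co-cultured library lay above every control library, against 29.4% of all genes. Over all genes 59.4% were separated in one direction or the other, 30.0% with the co-cultured libraries lower, and an exact permutation test of 3 libraries against 2 cannot go below 0.1. The balance of calls depends on the scaling, with 55.1% of all calls higher after TMM normalization and 43.9% after upper-quartile normalization, whereas the same 4 members were higher after both. The median of all genes was -0.11 after upper-quartile normalization. Without control replicate 1, 6 members rose, where 5295 of 19974 genes tested rose, against 3750 of 20360 with all libraries. Leaving out co-cultured replicate 1 leaves 1 library in that group, and fewer members and fewer of all genes were then called.

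**Figure D1:**
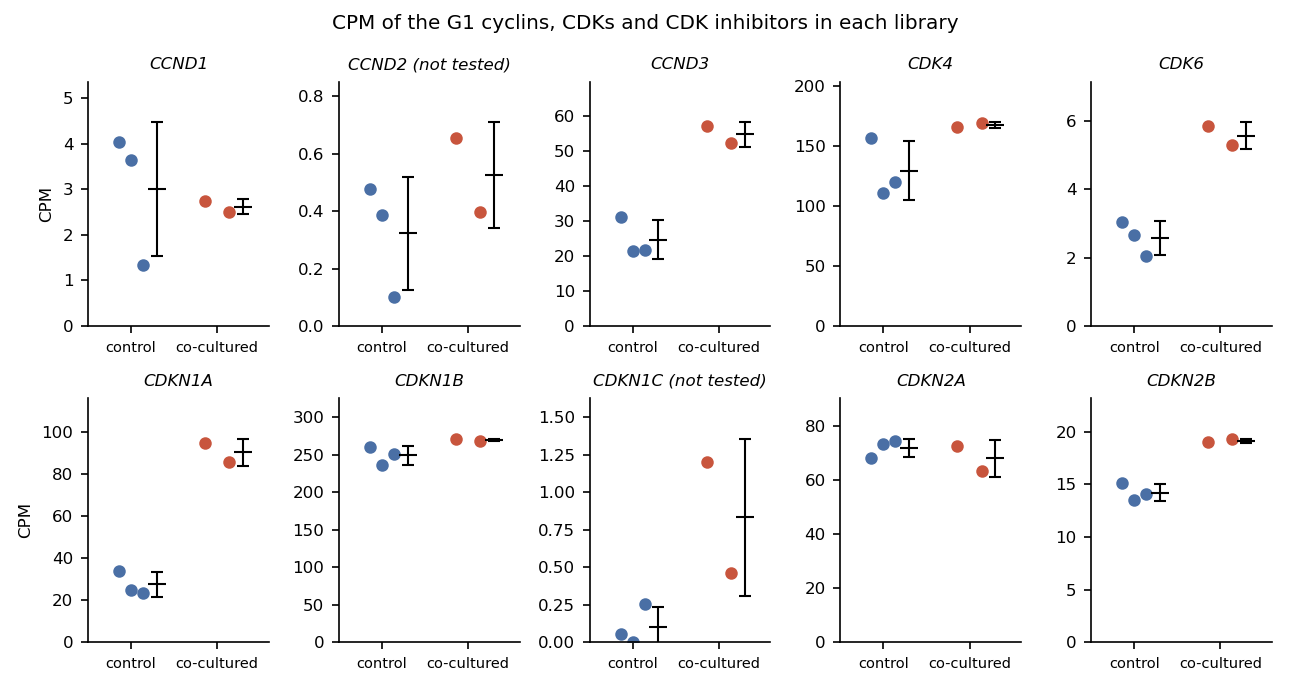
CPM of each of the 10 members (vertical axes, linear from 0, a scale of its own for each gene) in the 3 control libraries (blue) and 2 co-cultured libraries (red), with the mean and SD of each group as a bar beside the points. CDKN1A, CCND3, CDK6 and CDKN2B lie above all control points in each co-cultured library. So do CDK4 and CDKN1B, which did not pass the test, and CDKN1C, which was not tested. CCND1, CCND2 and CDKN2A overlap between the groups.

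Among the D-type cyclins, the regulatory subunits that growth signals induce in G1, CCND3 was the abundant one. CCND3 (ENSG00000112576.12, chromosome 6, 41934933 to 42050357 on the minus strand) had 31.1, 21.4 and 21.7 CPM in control replicates 1 to 3 and 57.3 and 52.3 CPM in co-cultured replicates 1 and 2. Both co-cultured libraries were thus well above the highest control. Its mean rose from 24.7 ± 5.53 to 54.8 ± 3.51 CPM (SD, n = 3 and n = 2), for a fitted log2 fold change of 1.15 (SE 0.15, quasi-likelihood adjusted p = 0.000705). Opposite-strand reads were few, with 20 to 28 in the control and 14 and 15 in the co-cultured libraries beside 387 to 1048 counts on the strand of the gene. The call for CCND3 held in all 16 alternatives of processing, with log2 fold changes of 1.06 to 1.35.

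CCND1 (ENSG00000110092.3, chromosome 11, 69641087 to 69654474 on the plus strand), cyclin D1, was sparse and did not pass the test. It had 76, 66 and 26 counts in the control libraries, which are 4.04, 3.65 and 1.33 CPM, and 50 and 38 counts after co-culture, which are 2.73 and 2.51 CPM. The co-cultured values lay inside the range of the controls, whose replicates 1 and 2 were above and whose replicate 3 was below them. The log2 fold change was -0.19 (SE 0.41, edgeR adjusted p = 0.753). Its sign rests on 1 library, since the log2 fold change was 0.10 without control replicate 1 (adjusted p = 0.846). Against control replicate 3 alone, an alternative added after the data were seen, it was 0.98 (adjusted p = 0.0295), on the assumption that this lone control varies like the co-cultured pair. CCND1 also had 84, 53 and 38 opposite-strand reads in the control and 34 and 10 in the co-cultured ones, 20.8% to 59.4% of its reads on both strands. Its 3′ end shares 497 bp of exon with LTO1 on the other strand, a gene with 370 to 453 counts of its own, and reads of LTO1 there cannot be told apart from other opposite-strand reads.

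CCND2 (ENSG00000118971.7, chromosome 12, 4273772 to 4305350 on the plus strand), cyclin D2, was near the limit of detection. It had 9, 7 and 2 counts in control and 12 and 6 counts after co-culture, where 3 counts correspond to 0.157 to 0.194 CPM before TMM scaling. It had 3, 2 and 1 opposite-strand reads in the control and none in the co-cultured libraries. A difference was not detectable at this depth.

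CDK4, the main kinase partner of the D-type cyclins, was abundant and did not pass the test. CDK4 (ENSG00000135446.16, chromosome 12, 57747727 to 57756013 on the minus strand) had 157, 111 and 120 CPM in control replicates 1 to 3 and 166 and 169 CPM in the co-cultured replicates. Control replicate 1 was close to the co-cultured libraries and the other controls were lower, with no overlap between the groups. The means were 129.5 ± 24.5 and 168 ± 2.23 CPM (SD, n = 3 and n = 2), for a fitted log2 fold change of 0.37 (SE 0.13, edgeR adjusted p = 0.0568). Without control replicate 1 the edgeR adjusted p was 2.20e-06, in a fit where 49.5% of all genes passed, against 33.4% with all libraries. With every library kept, it was 0.0357 by DESeq2 and 0.0302 by edgeR's exact test. It was 0.00109 in edgeR's quasi-likelihood test with a filter of at least 1 count in any library. Whether CDK4 passed thus depended on the method and the filter as well as on that control library. CDK4 shares 1369 bp of exon with TSPAN31 on the plus strand, a gene with 375 to 428 counts in control and 396 and 430 after co-culture. Reads in that stretch are assigned by strand here, whereas counts that ignore strand leave them out for both genes and gave CDK4 1052 to 1537 counts, against 2007 to 3041 on its own strand. MARCH9, which overlaps CDK4 on the plus strand without a shared exon, rose from a mean of 35.9 to 48.9 CPM, or by 0.45 on the log2 scale (edgeR adjusted p = 0.00561).

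CDK6, the second kinase of the D-type cyclins, rose from a low level. CDK6 (ENSG00000105810.9, chromosome 7, 92604921 to 92836594 on the minus strand) had 3.03, 2.65 and 2.05 CPM in control and 5.85 and 5.28 CPM after co-culture, from 57, 48 and 40 counts and from 107 and 80 counts. Every co-cultured library was above every control. The means were 2.58 ± 0.496 and 5.57 ± 0.399 CPM (SD, n = 3 and n = 2), for a fitted log2 fold change of 1.11 (SE 0.22, edgeR adjusted p = 0.00482). CDK6 had 35 and 14 opposite-strand reads in control replicates 1 and 2, and 0 or 1 in the other 3 libraries. The only annotated gene with exons opposite to CDK6, AC002454.1, had no count in any library. With the opposite-strand reads subtracted, an alternative added after the data were seen, the log2 fold change was 1.70 (adjusted p = 0.00126), and with counts that ignore strand it was 0.75 (adjusted p = 0.0955). Without co-cultured replicate 1 the adjusted p was 0.0613.

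**Figure D2:**
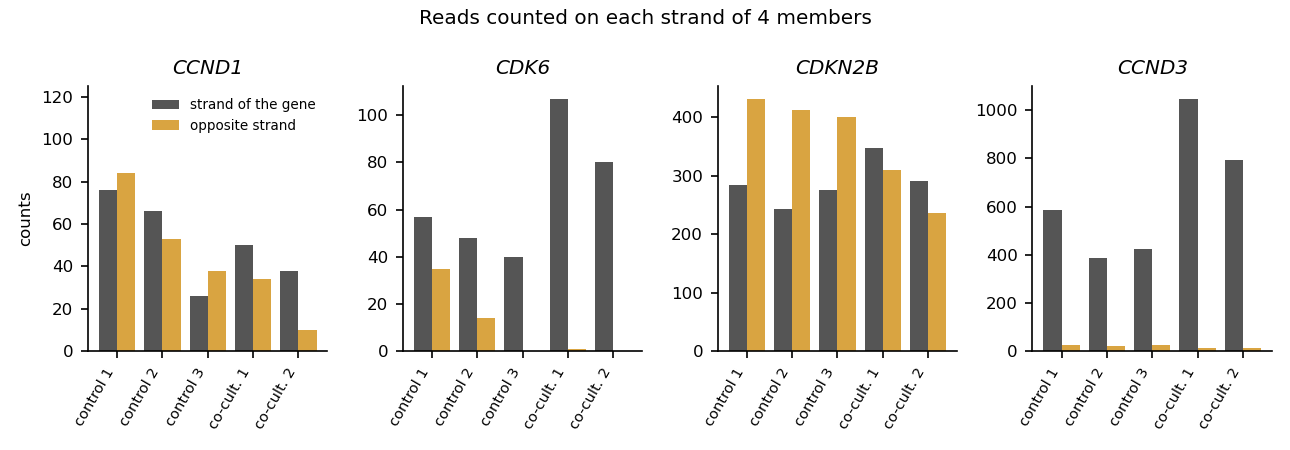
Reads counted on the strand of the gene (dark bars) and on the opposite strand (yellow bars) for CCND1, CDK6, CDKN2B and CCND3 in each of the 5 libraries, on linear axes from 0. CDK6 has opposite-strand reads mainly in control replicates 1 and 2 (35 and 14), CCND1 has them in every library (10 to 84), and CDKN2B has more of them than reads of its own strand in each control library.

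The CIP/KIP inhibitors held both the largest change among the tested members and the most abundant one. CDKN1A (ENSG00000124762.13, chromosome 6, 36676460 to 36687339 on the plus strand) encodes p21, an inhibitor of CDK2 complexes that stress and differentiation signals induce. It had 34.1, 24.8 and 23.7 CPM in the control libraries and 94.9 and 85.7 CPM in the co-cultured libraries. The lower co-cultured library was far above the highest control. The means were 27.5 ± 5.74 and 90.3 ± 6.51 CPM (SD, n = 3 and n = 2), for a fitted log2 fold change of 1.71 (SE 0.14, edgeR adjusted p = 7.72e-05). The call held in all 16 alternatives, with log2 fold changes of 1.62 to 1.93. Opposite-strand reads were 0 to 2 in a library. DINOL, a transcript annotated on the other strand that reaches into the promoter window printed for CDKN1A, had at most 3 counts.

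CDKN1B (ENSG00000111276.10, chromosome 12, 12715058 to 12722371 on the plus strand) encodes p27, an inhibitor that is high in quiescent cells and is controlled to a large part through its degradation. It had 261, 236 and 251 CPM in control and 271 and 269 CPM after co-culture. Both co-cultured libraries lay slightly above the controls. The log2 fold change was 0.11 (SE 0.08, edgeR adjusted p = 0.293), and without control replicate 1 it was 0.15 (adjusted p = 0.0358).

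CDKN1C (ENSG00000129757.13, chromosome 11, 2883213 to 2885773 on the minus strand) encodes p57, an imprinted inhibitor active in development. It had 1, 0 and 5 counts in control and 22 and 7 counts after co-culture, with no opposite-strand read in any library. The groups did not overlap, but 1 of the co-cultured libraries held most of the counts. It did not pass the filter on low counts. It was admitted under 3 alternatives, with a log2 fold change of 2.92 (SE 0.67, edgeR adjusted p = 0.000135) with a filter of at least 1 count in any library, 3.43 (SE 0.94, edgeR adjusted p = 0.0490) without co-cultured replicate 2, and 1.71 (SE 0.79, edgeR adjusted p = 0.0690) with control replicates 1 and 2 left out together. Its counts reach a filter through the co-cultured libraries, where they are higher, so these values are given as a description of counts near the floor and not as a test.

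The INK4 genes CDKN2A and CDKN2B lie side by side on the short arm of chromosome 9. CDKN2A (ENSG00000147889.17, 21967753 to 21995301 on the minus strand) gives rise to p16INK4a from a start at 21974857 and to p14ARF from a start at 21995324, and counts per gene do not separate the transcripts. It had 68.0, 73.1 and 74.4 CPM in control and 72.6 and 63.2 CPM after co-culture. The groups overlapped. The log2 fold change of CDKN2A was -0.08 (SE 0.09, edgeR adjusted p = 0.527), and its sign turned without co-cultured replicate 2, at 0.02.

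CDKN2B (ENSG00000147883.10, chromosome 9, 22002903 to 22009363 on the minus strand) encodes p15, an INK4 protein that TGF-β signals induce. It had 15.1, 13.5 and 14.1 CPM in control and 19.0 and 19.3 CPM after co-culture, with both co-cultured values above all controls. The means were 14.2 ± 0.814 and 19.2 ± 0.190 CPM (SD, n = 3 and n = 2), for a fitted log2 fold change of 0.43 (SE 0.11, edgeR adjusted p = 0.0176). The call was lost when some single libraries were left out, with adjusted p = 0.103 without co-cultured replicate 1, 0.119 without co-cultured replicate 2, 0.0609 without control replicate 2 and 0.0519 without control replicate 3.

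CDKN2B lies within the span of the antisense gene CDKN2B-AS1 (ANRIL), and it had 432, 413 and 400 opposite-strand reads in control and 310 and 236 after co-culture, beside 244 to 348 counts of its own. Its opposite-strand reads were fewer in both co-cultured libraries than in any control, while its own counts were higher. With counts that ignore strand CDKN2B had 657 to 716 in control and 528 and 658 after co-culture and a log2 fold change of 0.02 (adjusted p = 0.912). CDKN2B-AS1 itself had 35.1, 33.5 and 32.1 CPM in control and 26.7 and 29.7 CPM after co-culture, all lower than any control. Its log2 fold change was -0.25 (edgeR adjusted p = 0.0763), which did not pass. It shares 341 bp of exon with CDKN2A and none with CDKN2B in the annotation used.

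**Figure D3:**
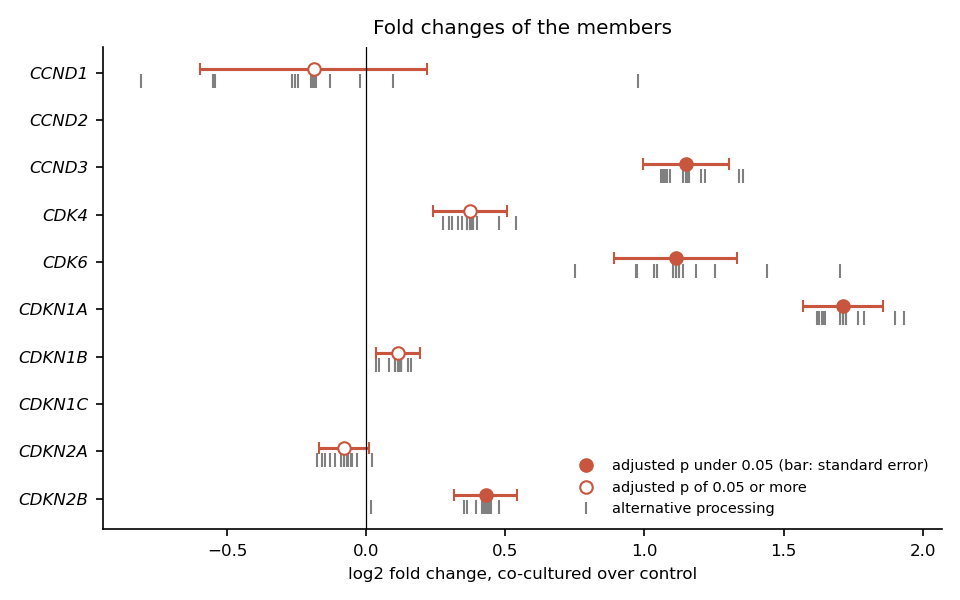
Log2 fold change, co-cultured against control (points) with 1 SE to either side (bars) for the 8 tested members, from edgeR's quasi-likelihood fit. CDKN1A (1.71), CCND3 (1.15), CDK6 (1.11) and CDKN2B (0.43) have filled points, for an adjusted p under 0.05. Grey ticks are the values under alternative processing, which cross 0 for CCND1 and CDKN2A, and CCND2 and CDKN1C have no point as they were not tested.

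Levels of different genes were compared as CPM per kilobase of merged exon. This divides by the length of all annotated exons of a gene together, not by that of the transcripts expressed. A gene whose expressed transcripts are shorter than its merged exons therefore stands too low. On this scale CDKN1B led in control cells with 88.7 ± 4.40, followed by CDK4 with 40.9 ± 7.73, CDKN2A with 16.6 ± 0.780 and CDKN1A with 9.03 ± 1.88 CPM per kilobase (SD, n = 3). CCND3 came next at 4.26 ± 0.953 and did not differ from CDKN2B at 3.51 ± 0.201 beyond the range of the libraries. CCND1 at 0.623 ± 0.303 and CDK6 at 0.210 ± 0.0404 CPM per kilobase stood far lower, and CCND2 and CDKN1C, at the end of the order, overlapped. In co-cultured cells CDKN1A, at 29.6 ± 2.13 CPM per kilobase (SD, n = 2), stood above CDKN2A, at 15.7 ± 1.54, an order opposite to that in control. CCND3, at 9.44 ± 0.605, no longer overlapped CDKN2B, and CDK6 at 0.454 ± 0.0325 overlapped CDKN1C.

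**Figure D4:**
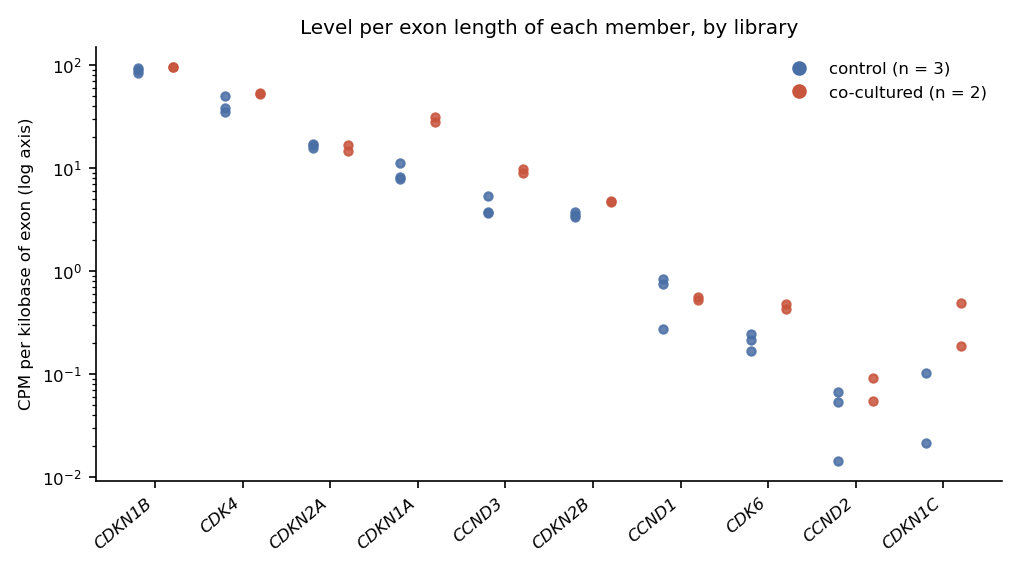
Level of each member in CPM per kilobase of merged exon (logarithmic axis) in the 3 control and 2 co-cultured libraries, 1 point a library. The control library without a count of CDKN1C cannot be drawn on this axis. CDKN1B and CDK4 lead in both groups, and CDKN1A passes CDKN2A after co-culture (29.6 against 15.7).

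The make-up of each family followed from these levels and is given as a description. CCND3 made up 85.6%, 82.0% and 92.8% of the D-type cyclin level per kilobase in control and 93.8% and 94.0% after co-culture, and CCND1 made up most of the rest. The summed level of the 3 D-type cyclins was 6.26, 4.50 and 4.02 CPM per kilobase in control and 10.5 and 9.59 after co-culture, with no overlap. CDK6 supplied 0.495%, 0.614% and 0.438% of the summed CDK4 and CDK6 level in control and 0.901% and 0.800% after co-culture, and CDK4 supplied 99.1% to 99.6% over all 5 libraries. CDKN1A accounted for 10.8%, 8.83% and 7.98% of the CIP/KIP level in control and 24.3% and 22.7% after co-culture. The summed level of CDKN2A and CDKN2B was 19.4, 20.2 and 20.7 CPM per kilobase in control and 21.5 and 19.4 after co-culture, which overlapped.

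Of 32 other genes of the G1/S transition 30 were tested, of which 6 rose (20%) and 7 fell (23.3%), against 18.4% and 15.0% of all genes, with a median log2 fold change of -0.02. RNA of RB1, whose protein is the target of the CDK4 and CDK6 kinases, rose from 213 ± 21.1 to 334 ± 0.366 CPM (SD, n = 3 and n = 2). The fitted log2 fold change was 0.65 (edgeR adjusted p = 0.000989). Whether NCI-H209 makes a working RB1 protein was not measured. E2F3, an activating E2F factor, rose by 0.51, cyclin E2 (CCNE2) by 0.35, MNAT1, an assembly factor of the CDK-activating kinase, by 0.34, and CDK2, the partner of cyclin E, by 0.26 on the log2 scale. CDKN2C (p18), another INK4 inhibitor, went the other way from CDKN2B. It had 81.4, 72.3 and 83.1 CPM in control and 45.7 and 39.5 CPM after co-culture, for a log2 fold change of -0.89 (SE 0.10, edgeR adjusted p = 0.000296). TFDP2, a dimer partner of E2F factors, fell by 0.67, cyclin A2 (CCNA2) by 0.50, and CKS1B, a cofactor in the degradation of p27, by 0.48 on the log2 scale. CDKN2D (p19), the remaining INK4 gene, and cyclin E1 (CCNE1) had log2 fold changes of -0.05 (adjusted p = 0.801) and -0.07 (adjusted p = 0.752) and did not pass. The counts of this list depended on single libraries, as did those of all genes. They were 11 risen and 9 fallen without control replicate 1, where 5295 and 4602 of 19974 genes tested rose and fell. Without control replicate 2, 4 rose, where 2879 of 19839 genes rose. Without control replicate 3, 4 rose and 4 fell, where 2941 and 2194 of 19836 genes rose and fell. Fewer were called when a co-cultured library was left out, which leaves 1 in its group.

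Of 24 E2F targets of the S phase, all tested, 6 rose (25%) and 4 fell (16.7%), shares near the 18.4% and 15.0% of all genes, with a median log2 fold change of 0.02. PCNA, the sliding clamp of DNA polymerases, rose by 0.53, CDC6, a loader of the replicative helicase, by 0.45, thymidine kinase TK1 by 0.68 and MYBL2, a factor of the cell cycle, by 0.64 on the log2 scale. Of the 6 subunits of the helicase itself, MCM5 fell by 0.61, MCM7 by 0.54 and MCM2 by 0.28 on the log2 scale. MCM3, MCM4 and MCM6, named here to complete the complex after their values were seen, had log2 fold changes of -0.06, 0.03 and -0.07 and did not pass. The repair enzyme UNG fell by 0.27 on the log2 scale. Without control replicate 1, 9 rose and 6 fell, where 5295 of 19974 genes tested rose and 4602 fell. Without control replicate 2 the counts were 4 and 4, where 2879 and 2150 of 19839 genes rose and fell. Without control replicate 3 they were 4 and 2, where 2941 and 2194 of 19836 genes rose and fell. Fewer were called when a co-cultured library was left out, which leaves 1 in its group.

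Of 12 mitotic markers, 11 fell and none rose by edgeR, against 15.0% of all genes lower, and their median log2 fold change was -0.69. AURKA and AURKB, kinases of the spindle and of chromosome segregation, fell by 0.71 and 0.70, cyclin B2 (CCNB2) by 0.81 and PLK1, a kinase of mitotic entry and exit, by 1.07 on the log2 scale. PLK1 had 79.3, 62.3 and 66.5 CPM in control and 30.3 and 36.1 CPM after co-culture, with all co-cultured values lower (edgeR adjusted p = 0.000357). The exception was FOXM1, a transcription factor of G2 genes, named after its value was seen, with a log2 fold change of 0.25 (adjusted p = 0.219), which passed as a rise without control replicate 1. In bulk RNA, fewer cells in mitosis and less RNA of these genes per cell cannot be told apart.

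**Figure D5:**
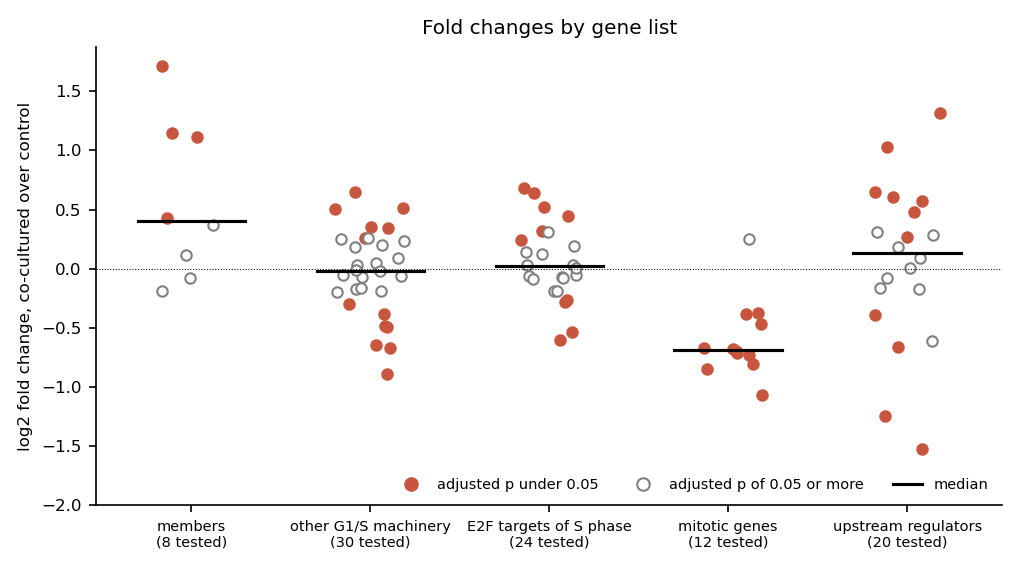
Log2 fold changes, co-cultured against control, for the tested genes of the members and of the other gene lists, 1 point a gene, filled at an adjusted p under 0.05, with the median of each list as a bar. Points are spread sideways only to part them. The mitotic markers lie below 0 except FOXM1 (median -0.69), and the points of the G1/S genes and E2F targets lie on both sides of 0.

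Among 22 regulators known to act on the members, 20 were tested, of which 7 rose (35%) and 4 fell (20%), against the same 18.4% and 15.0%, with a median log2 fold change of 0.13. KLF4, a factor that can activate CDKN1A, rose from 32.8 ± 1.69 to 81.7 ± 3.72 CPM (SD, n = 3 and n = 2), for a log2 fold change of 1.32 (edgeR adjusted p = 2.68e-05). ETS1, which can activate the p16INK4a promoter, rose by 1.03 on the log2 scale. BMI1 and RNF2, Polycomb proteins that repress the INK4 locus, rose by 0.65 and 0.48, whereas the Polycomb protein CBX7 fell by 0.66 on the log2 scale. ID1, an inhibitor of ETS and basic helix-loop-helix factors, had 127, 118 and 122 CPM in control and 41.1 and 43.8 CPM after co-culture, for a log2 fold change of -1.53 (edgeR adjusted p = 1.75e-05). MYCL, a MYC-family gene amplified in some SCLC, fell from 534 ± 101 to 225 ± 29.5 CPM (SD, n = 3 and n = 2), and MYC and MYCN were too low to be tested. Without control replicate 1, 7 of this list fell, where 4602 of 19974 genes tested fell. Fewer of the list were called lower when a co-cultured library was left out, which leaves 1 in its group.

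For each tested member, the protein-coding gene with the most similar profile over the 5 libraries was sought among 12830 genes by the root mean square difference of centred log2 CPM, as a description without a test. These were APOL6 for CDKN1A (0.0213), FAIM2 for CCND3 (0.0447), ABHD6 for CDK6 (0.0444) and PAX5 for CDKN2B (0.0119). For the members that did not pass they were PRDX2 for CDK4 (0.0173), AP1M1 for CDKN1B (0.0129), FSTL4 for CDKN2A (0.0207) and DDR2 for CCND1 (0.111). Among the members themselves the closest pairs were CDK4 with CDKN2B (0.117) and CCND3 with CDK6 (0.138). All profiles share the same 5 libraries.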

How the data were processed

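Per the labels, libraries were made from rRNA-depleted total RNA with a directional kit, and the submitters' processing notes name CASAVA 1.8, STAR 2.6.1b, DESeq2 and the build GRCh38. For each library the authors deposited whole-number counts of reads per gene, not normalized, in 3 columns: without regard to strand and for each strand. The column of the library strand was used here, and the opposite strand was checked for each member. A second table deposited by the authors holds mean normalized signal per group and their own fold changes and p-values. It served to match names with identifiers, and its values were not used.

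Low counts were filtered with filterByExpr (edgeR 4.0.16, R 4.3.3), and the genes kept were scaled by TMM and tested with edgeR's quasi-likelihood test between 3 control and 2 co-cultured libraries, with Benjamini-Hochberg adjustment over 20360 genes. The SE of a log2 fold change is its absolute value over the square root of the F statistic. CPM (counts per 1000000) use TMM-scaled library sizes, and SD is over libraries. Exon lengths and overlaps came from GENCODE release 29 on GRCh38. No sample was left out, and depth limits genes with few counts as given for each. The steps were tested on simulated data.

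Genes named are all members, the genes opposite to them, at most 4 genes per direction with the smallest p from each of 4 lists, 6 further INK4, cyclin E and RB genes (CDKN2C, CDKN2D, CCNE1, CCNE2, CDK2 and RB1), and the nearest profile of each tested member. A few genes that this rule or the marker lists hold are not reported here. The members and the lists were chosen with earlier results of these data known. Alternatives were DESeq2 1.42.0, edgeR's exact test, other scalings, filters and strand settings, a replicate block, protein-coding genes only, and each library left out in turn. Of these, subtracting opposite-strand counts and leaving out control replicates 1 and 2 together were added after seeing the data.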

Additional observations from a re-analysis of the deposited data

How the results depend on the processing

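CCND3 and CDKN1A passed in every alternative run. The results of the remaining members depend on few libraries or on the processing. So do the counts of the other lists, except those of the mitotic markers that fell. For all of them, 3 against 2 leaves the spread poorly known. Of 124 values of tested members over the alternatives, 107 kept direction and call, 8 lost the call, 6 gained it and 3 changed sign. With each library left out in turn, the log2 fold change of CCND1 ran from -0.55 to 0.10, positive without control replicate 1, and that of CDKN2A from -0.18 to 0.020, positive without co-cultured replicate 2. CCND1 was also positive, at 0.98, with control replicates 1 and 2 left out together. Low counts limit CCND1, CCND2, CDK6 and CDKN1C. Unless stated, the cause of a change was not tested.

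With counts that ignore strand, 2 members rose instead of 4, where 3997 of 24726 genes tested rose and 2956 fell. Leaving out each control library in turn gave 3 to 6 members higher and 0 lower. Over all genes tested, 49.5% were called without control replicate 1, 25.3% without control replicate 2 and 25.9% without control replicate 3. Other G1/S genes had 4 to 11 higher and 4 to 9 lower, and E2F targets 4 to 9 higher and 2 to 6 lower. Mitotic markers had 0 to 1 higher and 11 lower, and regulators 6 to 8 higher and 3 to 7 lower. Leaving out a co-cultured library leaves 1 in its group, and fewer genes of each of these lists were then called. This holds for the members too, once CDKN1C is set aside. Without co-cultured replicate 2, CDKN1C passed the filter through the 22 counts of the co-cultured library left. Its value there is therefore not taken as a call. The replicate numbers are shared by both groups, but nothing in the labels says that a number pairs samples. Deviations of same-numbered libraries from their group means had correlations of -0.114 and -0.0670. These values cannot decide on pairing, since the deviations of 2 co-cultured libraries mirror each other by construction. With the replicate block, 4824 genes were called instead of 6809, with 3 members higher, CDKN2B at an adjusted p of 0.0961, 3 other G1/S genes higher and 4 lower, and 2 E2F targets lower. Mean shares of CCND1 among D-type cyclins in co-cultured libraries were 4.52% without division by length and 5.70% with counts that ignore strand, and 18.6% in control with the latter. Those of CCND3 were 94.6%, 93.6% and 80.4%, in the same order. CDK6 took 3.21% and 1.70% of the CDK4 and CDK6 level in co-cultured libraries and 1.97% and 1.30% in control, without division by length and with counts that ignore strand. Without division by length the shares change by construction, since the genes differ in exon length.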
